A study of Arabidopsis thaliana with 4 samples.

Results

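The clade A protein phosphatases 2C (PP2Cs) of Arabidopsis thaliana are 9 nuclear genes, taken by locus from the 33977 gene rows of the study: ABI1 (AT4G26080), ABI2 (AT5G57050), HAB1 (AT1G72770), HAB2 (AT1G17550), AHG1 (AT5G51760), AHG3 (AT3G11410, also called PP2CA), HAI1 (AT5G59220), HAI2 (AT1G07430) and HAI3 (AT2G29380). The mRNA of 4 individual plants was sequenced: 2 were Col-0, the wild type, and 2, labelled PPD3_OE, were Col-0 plants overexpressing PPD3, a chloroplast protein with a PsbP domain. They grew in peat mix under 16-h days at 22 °C and were harvested as bolting began, and the labels call the tissue both the entire plant and the rosette. The sources used here do not state the promoter of the PPD3 transgene, the number of independent lines or the age in days. The comparison of PPD3_OE with Col-0 asks how these transcripts differ when PPD3 is overexpressed.

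Clade A PP2Cs are the brakes of abscisic acid (ABA) signalling. Without the hormone they bind and dephosphorylate the ABA-activated SnRK2 kinases and keep them off. When ABA occupies a receptor of the PYR/PYL family, the receptor docks onto the phosphatase and blocks its active site, so that the kinases are freed to phosphorylate transcription factors of the ABF group and ion channels of guard cells. ABFs bind the ABA-responsive element, whose core is ACGTG, in the promoters of target genes, and several of these phosphatases are themselves targets of ABA, a negative feedback well known in leaves and seedlings.

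Counts assigned to genes ran from 33771093 to 40727172 per plant. PPD3 (AT1G76450), whose level checks the labels, stood at 103 and 70.7 CPM (read counts relative to library size, scaled between libraries by the TMM method) in Col-0 plants 1 and 2 and at 2836 and 3264 CPM in PPD3_OE plants 1 and 2. Leaf mesophyll markers summed to between 21697 and 28800 CPM per plant, but they did not move together. LHCB1.3 was at 16170 and 14296 CPM in Col-0 plants 1 and 2 and at 10663 and 11567 CPM in PPD3_OE plants 1 and 2. In the same order, RBCS1A was at 9697, 6589, 11802 and 14207 CPM, and CA1 at 1901, 812, 3075 and 3026 CPM. Of 3 root markers, PYK10 was at 44.9 and 45.6 CPM in Col-0 plants 1 and 2 and at 46.5 and 32.2 CPM in PPD3_OE plants 1 and 2, EXPA7 had a count of 0 in each plant and COBL9 had counts in 1 plant. Since these are bulk samples, fewer cells of a type and less RNA per cell cannot be told apart.

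Of the 9 members, 7 passed the low-count filter, and all 7 had negative log2 fold changes (PPD3_OE over Col-0), with a median of -1.06. The median over all 19919 genes tested was 0.01, and 48.8% of them had a negative value. Lowest were HAI1, at 8.17-fold lower, HAI2, at 5.86-fold lower, and AHG3, at 3.05-fold lower. ABI1, HAB1 and ABI2 were lower by 1.81-fold to 2.08-fold, and HAB2 by 1.12-fold. In 6 of the 7, both PPD3_OE plants lay below both Col-0 plants, a pattern found in 33% of all genes tested (33.9% had both above), and the remaining one, HAB2, had groups that overlapped.

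The test across all genes sets limits on these values. edgeR's quasi-likelihood test, with Benjamini-Hochberg adjustment over all 19919 genes, called 0 members at an adjusted p of 0.05, and it called 0.00502% of all genes. PPD3 itself, at 35.2-fold higher in PPD3_OE, had an edgeR adjusted p of 0.0623 and was not called. A missing call in this test is therefore no sign that a transcript is unchanged. The same 6 members had an unadjusted p under 0.05, as did 17% of all genes in the lower direction and 16.1% in the higher. All 6 had an adjusted p under 0.10, which 11.2% of all genes reached in the lower direction and 9.56% in the higher. DESeq2, the other count test, called these 6 lower at an adjusted p of 0.05, against 9.65% of the genes for which it gave one. With 1 plant left out, DESeq2 called 2 members without Col-0 plant 2 (AHG3 and HAI1), 3 without PPD3_OE plant 2 (AHG3, HAI1 and HAI2), 5 without PPD3_OE plant 1 and 6 without Col-0 plant 1. Each of these fits has 1 plant in 1 genotype, which is assumed to vary like the plants of the other.

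**Figure D1:**
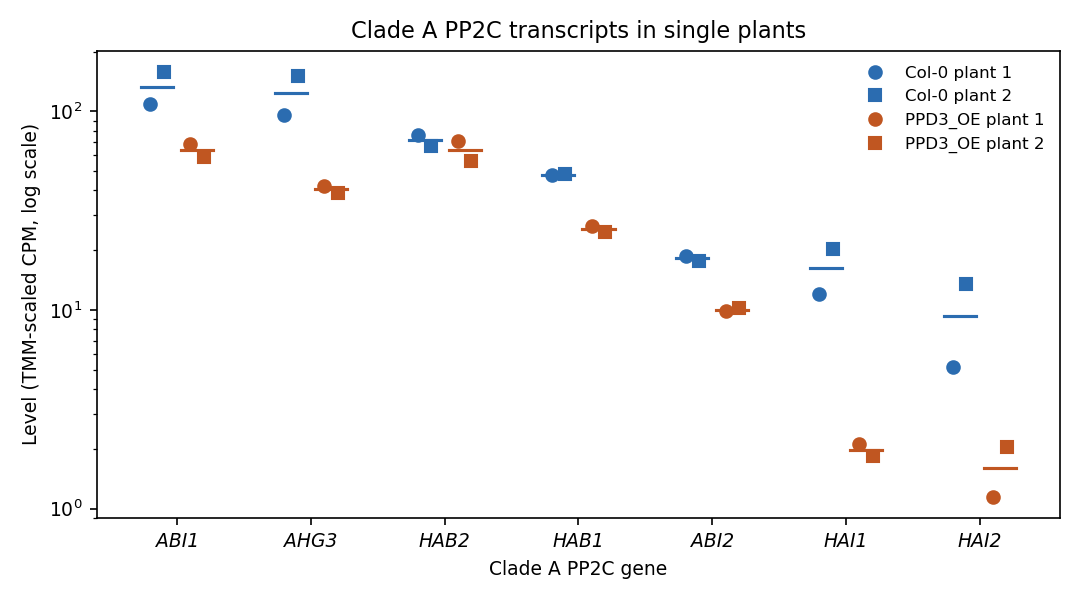
Level of the 7 tested clade A PP2C transcripts in each plant, in TMM-scaled CPM on a log axis. Blue marks are Col-0 and orange marks PPD3_OE, circles are plant 1 and squares plant 2, and bars are group means over 2 plants. The genotypes separate for each gene but HAB2, and in Col-0 plant 2 stands above plant 1 by the most for HAI2, at 13.5 against 5.19 CPM.

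To show what lies in front of these genes, the 300 bases upstream of the annotated start were read from the RefSeq TAIR10.1 genome. Those of the 3 members with the lowest fold changes and of the least changed one are printed 5′ to 3′ in the direction of the gene, with ACGTG on either strand in capitals (CACGT is its reverse complement, and CACGTG is both at once). They are chr5:23896940-23897239 for HAI1, chr1:2282829-2283128 for HAI2 and chr3:3585851-3586150 for AHG3, each on the minus strand, and chr1:6033970-6034269 for HAB2 on the plus strand.
HAI1: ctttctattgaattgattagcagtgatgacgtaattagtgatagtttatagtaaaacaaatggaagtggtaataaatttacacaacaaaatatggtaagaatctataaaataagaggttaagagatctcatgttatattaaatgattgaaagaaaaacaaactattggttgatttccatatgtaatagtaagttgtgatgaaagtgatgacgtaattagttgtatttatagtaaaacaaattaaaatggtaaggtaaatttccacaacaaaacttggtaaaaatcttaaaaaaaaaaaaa
HAI2: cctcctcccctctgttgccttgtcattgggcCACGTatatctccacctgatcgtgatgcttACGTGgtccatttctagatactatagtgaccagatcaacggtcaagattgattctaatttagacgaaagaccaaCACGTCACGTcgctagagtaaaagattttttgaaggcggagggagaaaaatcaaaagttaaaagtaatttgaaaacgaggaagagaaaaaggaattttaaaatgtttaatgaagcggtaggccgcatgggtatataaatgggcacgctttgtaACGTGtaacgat
AHG3: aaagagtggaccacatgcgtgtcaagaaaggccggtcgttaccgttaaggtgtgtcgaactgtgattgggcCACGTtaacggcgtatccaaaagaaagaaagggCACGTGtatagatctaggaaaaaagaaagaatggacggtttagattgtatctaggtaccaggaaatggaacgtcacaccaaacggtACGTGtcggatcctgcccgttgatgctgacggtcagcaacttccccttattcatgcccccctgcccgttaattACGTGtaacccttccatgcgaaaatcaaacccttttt
HAB2: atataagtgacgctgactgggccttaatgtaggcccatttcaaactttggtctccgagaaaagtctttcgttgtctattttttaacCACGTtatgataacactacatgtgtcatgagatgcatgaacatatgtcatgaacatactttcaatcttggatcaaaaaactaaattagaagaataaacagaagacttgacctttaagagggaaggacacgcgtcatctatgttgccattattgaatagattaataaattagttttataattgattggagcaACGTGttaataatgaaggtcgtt

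Blocks of ACGTG were counted after merging overlapping or adjoining matches. They numbered 4 in the HAI2 window, 4 in that of AHG3, 2 in that of HAB2 and 0 in that of HAI1. ABI1, HAB1 and AHG1 had 1 each, HAI3 had 2 and ABI2 had 0. Thus 7 of 9 members held the letters, against 25.6% of 27443 protein-coding nuclear genes, 29% of 62 other PP2C genes and 76% of 25 ABA-responsive targets. At least 2 blocks were found in 4 of the 9 and in 5.81% of all genes. The longer forms ACGTGGC or ACGTGTC, which contain the core, were found in 4 members (ABI1, HAB1, AHG3 and HAI2) and in 7.01% of all genes.

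The order of the fold changes did not follow these counts. HAI1, the lowest member, had no block in this window nor in 1000 bases, a distance in which 54.4% of all genes have at least 1. HAB2 had 2 and was the least changed. A match in these letters is a description of the sequence and not a measured binding site, and the absence of a match says only that the letters are not in that window.

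**Figure D2:**
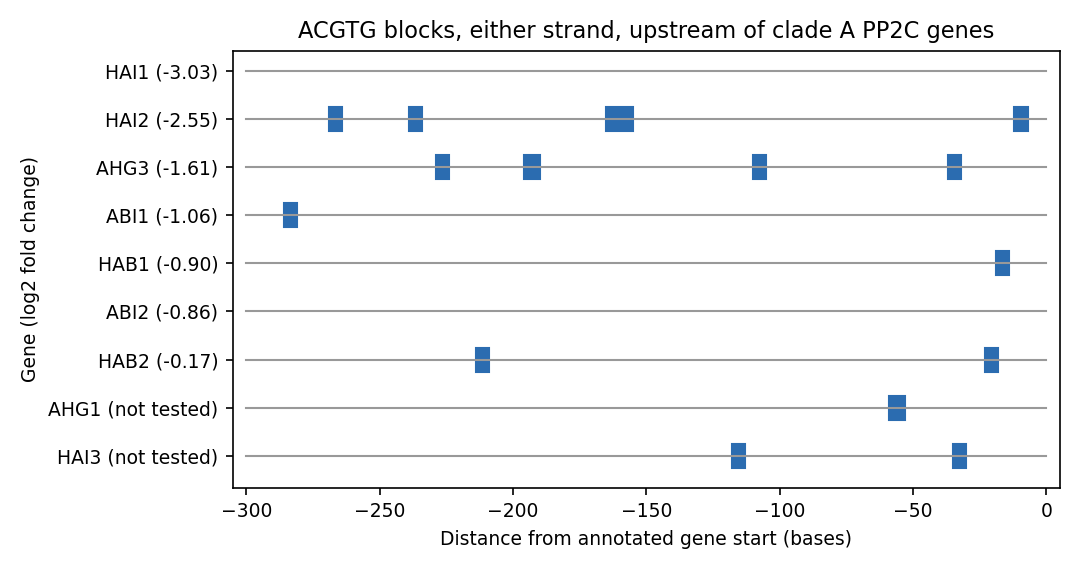
Position of ACGTG blocks, either strand, in the 300 bases before the annotated start of each member, with genes ordered by log2 fold change (given in brackets). Blue boxes are blocks to scale, and the horizontal axis is the distance from the start in bases. HAI2 and AHG3 hold 4 blocks each, while HAI1 and ABI2 hold 0.

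ABI1 and ABI2 are the founding pair of the clade, known from dominant mutants that do not respond to ABA. ABI1 lies on chromosome 4 (13219915 to 13222376, minus strand) and ABI2 on chromosome 5 (23087122 to 23089631, plus strand) in TAIR10.1. They are each other's closest relative here, with 79.3% identity over aligned coding bases, and no pair of members shared an exact run longer than 33 bases, against reads of 150 bases. ABI1 was at 109 and 158 CPM in Col-0 plants 1 and 2 and at 68.9 and 59.3 CPM in PPD3_OE plants 1 and 2. Both PPD3_OE plants were low and the Col-0 plants were unequal, plant 2 being the higher. Its log2 fold change was -1.06 ± 0.22 (SE, n = 2 plants per genotype in each such value, edgeR adjusted p = 0.0731, DESeq2 adjusted p = 0.000991). The last 22 bases of ABI1 overlap AT4G26070, annotated as MAP kinase/ERK kinase 1 on the opposite strand, which was at 63.7 ± 7.55 CPM in Col-0 and 53.1 ± 1.35 CPM in PPD3_OE. The reads carry no strand, so counts in those shared bases cannot be assigned to either gene.

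ABI2 stood far below ABI1, at 18.7 and 17.7 CPM in Col-0 plants 1 and 2 and 9.86 and 10.2 CPM in PPD3_OE plants 1 and 2. The plants of each genotype were close to each other and the genotypes did not overlap. Its log2 fold change was -0.86 ± 0.11 (edgeR adjusted p = 0.0623, DESeq2 adjusted p = 0.000207). The ratio of ABI1 to ABI2 counts within a library, which needs no scaling between libraries, was 5.82 and 8.91 in Col-0 and 6.99 and 5.79 in PPD3_OE. These ranges overlap. An exact permutation test of 2 plants against 2 cannot give a two-sided p below 0.333, so such ratios are given as values.

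HAB1 and HAB2 form the next pair, named for their homology to ABI1 and ABI2, with 79.2% identity over aligned coding bases. Both lie on the plus strand of chromosome 1, HAB1 from 27389948 to 27393327 and HAB2 from 6034270 to 6037398. HAB1 is one of the phosphatases whose loss makes plants oversensitive to ABA. It was at 47.6 and 48.3 CPM in Col-0 plants 1 and 2 and at 26.4 and 24.8 CPM in PPD3_OE plants 1 and 2. Neither genotype had a plant that stood apart, and the gap between genotypes was many times that between plants. Its log2 fold change was -0.90 ± 0.10 (edgeR adjusted p = 0.0623, DESeq2 adjusted p = 1.84e-06).

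HAB2 was at 76 and 66.9 CPM in Col-0 plants 1 and 2 and at 70.9 and 56.6 CPM in PPD3_OE plants 1 and 2, so that PPD3_OE plant 1 lay between the Col-0 plants. Its log2 fold change of -0.17 ± 0.16 did not pass (edgeR adjusted p = 0.503, DESeq2 adjusted p = 0.64), and its 95% interval ran from -0.6 to 0.26. A fall as large as that estimated for HAB1 lies outside that interval. The HAB1 to HAB2 ratio of counts was 0.626 and 0.722 in Col-0 and 0.373 and 0.439 in PPD3_OE. Both PPD3_OE plants had the lower ratio, by 0.73 on the log2 scale on average.

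AHG1 and AHG3 were found through mutants hypersensitive to ABA at germination, and AHG1 is known mainly from seeds. AHG1 lies on chromosome 5 (21026805 to 21029188, plus strand) and AHG3 on chromosome 3 (3583782 to 3585850, minus strand). AHG1 had 1 count in each Col-0 plant, 0 in PPD3_OE plant 1 and 1 in plant 2, and was not tested. In a library of this size 3 counts, the limit that a count of 0 allows, are worth 0.0749 to 0.0875 CPM. The seed markers CRA1, CRC, SESA1 and OLEO1 likewise summed to no more than 0.349 CPM in any plant.

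AHG3, which is expressed in many tissues and acts on kinases and channels of guard cells, was at 96.3 and 151 CPM in Col-0 plants 1 and 2 and at 42.3 and 38.7 CPM in PPD3_OE plants 1 and 2. The Col-0 plants differed by 0.65 on the log2 scale, and both lay well above both PPD3_OE plants. The log2 fold change was -1.61 ± 0.25 (edgeR adjusted p = 0.0623, DESeq2 adjusted p = 9.29e-07). Only 3% of all genes tested had a value at or below it.

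HAI1, HAI2 and HAI3 are the highly ABA-induced PP2C genes, a subgroup studied for its part in drought and low water potential. HAI1 carries the synonym senescence associated gene 113 in the RefSeq table and lies on the minus strand of chromosome 5 from 23894404 to 23896939. Its level was 12.1 and 20.2 CPM in Col-0 plants 1 and 2, and 2.12 and 1.84 CPM in PPD3_OE plants 1 and 2, from 449, 704, 85 and 63 counts. The PPD3_OE plants were alike and the Col-0 plants differed by 0.74 on the log2 scale, less than the distance between genotypes. Its log2 fold change was -3.03 ± 0.32, with a 95% interval from -3.87 to -2.18 (edgeR adjusted p = 0.0623, DESeq2 adjusted p = 6.69e-14), and 0.477% of all genes tested had a value at or below it.

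HAI2, also named AIP1 for its interaction with the potassium channel AKT1 and placed on chromosome 1 (2280746 to 2282828, minus strand), was at 5.19 and 13.5 CPM in Col-0 plants 1 and 2 and at 1.15 and 2.04 CPM in PPD3_OE plants 1 and 2. In both genotypes plant 2 was the higher, by 1.38 in Col-0 and 0.83 in PPD3_OE on the log2 scale, so HAI2 had the widest spread between plants of the tested members. Its log2 fold change was -2.55 ± 0.59, with a 95% interval from -4.14 to -0.96 (edgeR adjusted p = 0.0798, DESeq2 adjusted p = 0.000221). Without Col-0 plant 2 it was -1.73 ± 0.43 in edgeR, and DESeq2's adjusted p became 0.235. The HAI1 to HAI2 ratio of counts was 2.34 and 1.5 in Col-0 and 1.85 and 0.9 in PPD3_OE, ranges that overlap.

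HAI3, on chromosome 2 (12608675 to 12610350, plus strand), had few counts in any plant. It had 0 counts in both Col-0 plants, 7 in PPD3_OE plant 1 and 2 in plant 2, and was not tested. The levels in PPD3_OE, 0.175 and 0.0583 CPM, lie on either side of the limit that a count of 0 allows in those libraries.

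The spread within Col-0 differed among the members. Plant 2 exceeded plant 1 on the log2 scale by 1.38 for HAI2, 0.74 for HAI1, 0.65 for AHG3 and 0.53 for ABI1, the 4 members with the lowest fold changes. For HAB1, ABI2 and HAB2 the same difference was 0.02, -0.08 and -0.18. In PPD3_OE the difference between plants lay between -0.32 and 0.05 for each tested member but HAI2.

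Levels of different genes were compared as CPM per kilobase of annotated exon. In Col-0 plants 1 and 2, AHG3 (53.5 and 83.8) and ABI1 (50.2 and 72.7) led and were not separable by their spread. HAB2 (28.8 and 25.3) and HAB1 (17 and 17.3) followed. ABI2 (8.19 and 7.75) overlapped HAI1 (5.83 and 9.7), which overlapped HAI2 (2.73 and 7.08). In PPD3_OE plants 1 and 2, ABI1 led at 31.8 and 27.3 CPM per kilobase, and HAB2 (26.8 and 21.4) and AHG3 (23.5 and 21.5) overlapped each other. HAB1 (9.46 and 8.88), ABI2 (4.32 and 4.49), HAI1 (1.02 and 0.882) and HAI2 (0.602 and 1.07) came after them in that order, the last pair overlapping.

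Summed over the 9 members, the level was 166 and 224 CPM per kilobase in Col-0 and 97.6 and 85.7 in PPD3_OE. Within that pool ABI1 had a share of 30.2% and 32.5% in Col-0 and 32.5% and 31.9% in PPD3_OE. HAB2 made up 17.3% and 11.3% in Col-0 and 27.5% and 25% in PPD3_OE, the higher share being in PPD3_OE. AHG3 went the other way, with 32.2% and 37.5% in Col-0 and 24.1% and 25.1% in PPD3_OE. HAI1 made up 3.51% and 4.34% in Col-0 and 1.04% and 1.03% in PPD3_OE.

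**Figure D3:**
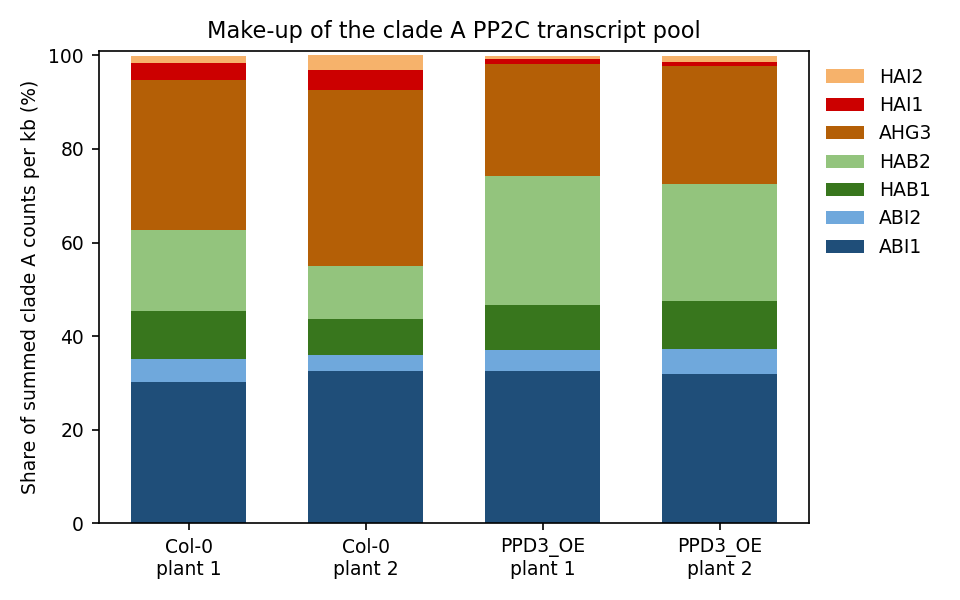
Share of each tested member in the summed clade A counts per kilobase of exon, in percent, for each of the 4 plants. Each bar is 1 plant and sums to nearly the whole, with AHG1 and HAI3 too low to draw. HAB2 takes 27.5% and 25% in PPD3_OE against 17.3% and 11.3% in Col-0, while AHG3 and HAI1 take less.

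The partners of the phosphatases were read from the same test, in which edgeR called 0 members of any list below at an adjusted p of 0.05. Of 14 PYR/PYL receptors, which bind ABA and then the phosphatase, 9 were tested, 5 with negative and 4 with positive values, and the median was -0.48 (-0.26 without PPD3_OE plant 2). DESeq2 called PYL8 lower (-0.50 ± 0.11) and PYL1 higher (0.50 ± 0.11), and PYL9 (-0.58 ± 0.16) did not pass. DESeq2 called 9.65% of all genes lower and 8.35% higher.

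All 10 SnRK2 kinases, a family that includes the kinases the phosphatases switch off, had negative values, with a median of -0.41. Over all genes 48.8% had a negative value. DESeq2 called 5 lower, against 9.65% of all genes. SnRK2.3, one of the kinases most strongly activated by ABA, was at 71 ± 7.44 CPM in Col-0 and 38.5 ± 6.55 CPM in PPD3_OE (log2 fold change -0.88 ± 0.17). SnRK2.9 (-2.78 ± 0.60, at 2.01 CPM or less) and SnRK2.10 (-0.49 ± 0.12) were called lower as well. The ratio of clade A PP2Cs to the 3 ABA-activated kinases SnRK2.2, SnRK2.3 and SnRK2.6, summed per kilobase, was 0.984 and 1.23 in Col-0 and 0.839 and 0.716 in PPD3_OE. That ratio was chosen after the values were seen and was lower in both PPD3_OE plants than in both Col-0 plants.

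Of the 8 ABRE-binding factors, the bZIP proteins that act below the kinases, 7 were tested, all 7 with negative values and with groups that did not overlap. Over all genes tested 33% had groups apart in that direction. The median of the 7 was -0.8, and DESeq2 called 4 lower, against 9.65% of all genes. ABF4 (-1.25 ± 0.14), ABF3 (-1.69 ± 0.20) and ABF1 (-0.80 ± 0.12) had the smallest p. Among 25 ABA-responsive targets 22 were tested, 21 with negative values and a median of -1.2. In 16 of the 22 both PPD3_OE plants lay below both Col-0 plants, against 33% of all genes. The other tested targets had groups that overlapped. By DESeq2 15 were called lower, again against 9.65%. The galactinol synthase GolS2 was at 29.4 ± 3.92 and 2.42 ± 0.665 CPM in Col-0 and PPD3_OE. ATHB7, a homeodomain factor known to act on PP2C genes in the ABA response, was at 28 ± 5.6 and 6.34 ± 0.811 CPM, and AFP1, a protein that binds ABI5, at 9.47 ± 2.49 and 2.07 ± 0.000421 CPM.

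Of 10 regulators of PP2C activity or turnover, 6 had negative and 4 positive values, with a median of -0.14. EAR1, a protein that enhances PP2C activity, was called higher by DESeq2 (8.35% of all genes were), at 99.7 ± 5.48 CPM in Col-0 and 146 ± 9.21 CPM in PPD3_OE. PUB13, a ubiquitin ligase that targets ABI1, was called lower (-0.42 ± 0.11), as were 9.65% of all genes. DOG1, a seed dormancy protein that binds AHG1, did not pass (-1.20 ± 0.44, at 0.833 CPM or less). Of 5 channels and oxidases downstream, DESeq2 called 0. edgeR gave 1 an unadjusted p under 0.05 in the higher direction, as it did 16.1% of all genes. KAT1 (0.40 ± 0.12), SLAC1 (0.41 ± 0.24) and SLAH3 (0.82 ± 0.62) did not pass. ABA synthesis and breakdown genes had a median of -0.23 over 13 tested of 16. Of these DESeq2 called 1 lower, ABA1 (-0.47 ± 0.13), against 9.65% of all genes. AAO3 (-0.49 ± 0.16) and ABA2 (0.40 ± 0.17) did not pass. The median hides genes of this list in which PPD3_OE plants 1 and 2 lay far apart. NCED3 was at 16.4 and 45.3 CPM in Col-0 and at 53.8 and 3.59 CPM in PPD3_OE. CYP707A3 was at 11.3 and 23.5 CPM in Col-0 and at 41.2 and 4.7 CPM in PPD3_OE. ABA1, by contrast, was at 130 and 146 CPM in PPD3_OE. NCED3 and CYP707A3 were picked after their values were seen. The hormone itself was not measured.

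**Figure D4:**
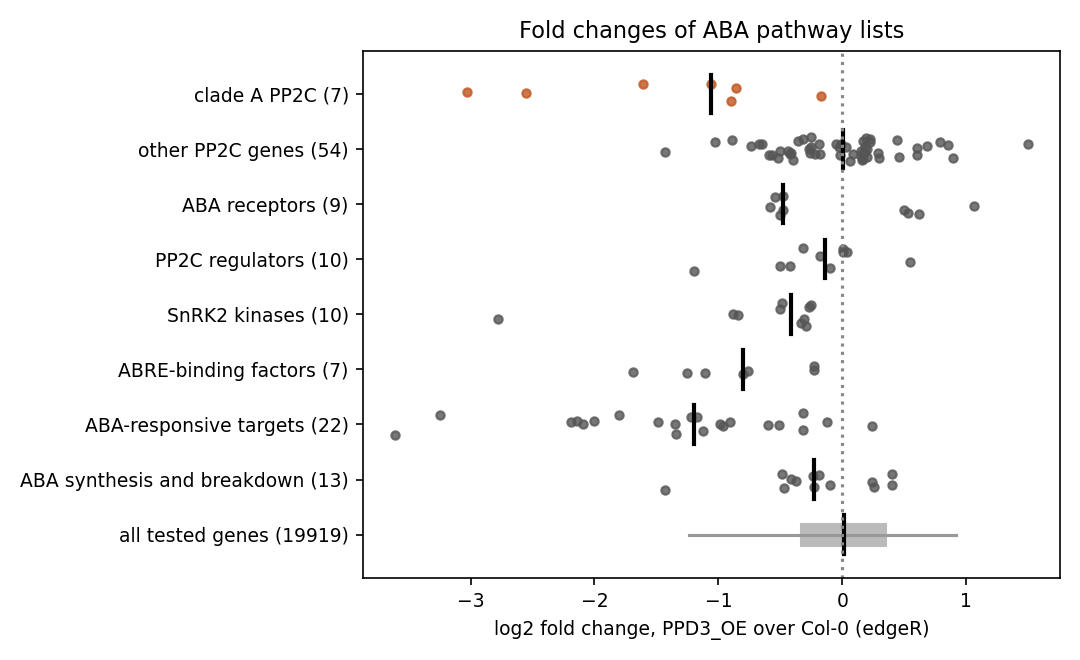
edgeR log2 fold changes (PPD3_OE over Col-0) of the tested members of each list, 1 point per gene, with the number tested in brackets and a black bar at the median. For all 19919 genes the grey box spans the 25th to 75th percentiles and the line the 5th to 95th. Clade A PP2Cs have a median of -1.06 and ABA-responsive targets of -1.2, while other PP2C genes (0.01) sit at the median of all genes.

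Other genes annotated as PP2C by RefSeq product name served as the nearest comparison. Of 62 such genes 54 were tested, 27 with negative and 27 with positive values, with a median of 0.01. DESeq2 called 8 lower and 0 higher, against 9.65% and 8.35% of all genes. None of the 54 had a fold change as low as those of HAI1, HAI2 or AHG3, and 1 was as low as that of ABI1. That gene was AT3G16800, at 11.7 and 17.9 CPM in Col-0 and 5.09 and 5.86 CPM in PPD3_OE (-1.43 ± 0.25). AT2G25070 (-0.67 ± 0.10) and AT4G31860 (-0.57 ± 0.12) were lower with it. This is a count beside the members and not a test of a difference between the families.

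Markers of other cell states were read beside the members. Of 5 markers of senescing leaves 4 were tested in edgeR, with a median log2 fold change of -4.47. With SAG12 they summed to 185 and 352 CPM in Col-0 plants 1 and 2. In PPD3_OE plants 1 and 2 the sum was 15.3 and 11 CPM. All 5, SAG12 included, were called lower by DESeq2, against 9.65% of all genes. Col-0 plant 2 was the higher Col-0 plant for SEN1 (68.7 and 224 CPM in plants 1 and 2), ORE1 and NAP, and plant 1 for SAG12 (4.84 and 0.201 CPM) and SAG13 (78.5 and 52.4 CPM). Dividing-cell markers had positive values in 4 of 4, with sums of 51.2 and 44.2 CPM in Col-0 and 82.4 and 77.2 CPM in PPD3_OE. All 4 were called higher by DESeq2, against 8.35% of all genes. Flower markers had positive values in 5 of 5, with a median of 1.1 and sums of 11.9 and 5.89 CPM in Col-0 and 19.7 and 12.8 CPM in PPD3_OE, and DESeq2 called 0 of them. The part of any of these lists in the fold changes of the phosphatases was not tested. Guard cell markers, for the cells in which several of these phosphatases act on channels, had positive values in 5 of 5, with a median of 0.25. They summed to 53.3 and 45.8 CPM in Col-0 and 55 and 60.1 CPM in PPD3_OE, and DESeq2 called 0 of 5. KAT1 and SLAC1 are in this list and also in that of channels and oxidases.

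The genes whose pattern over the 4 plants lay nearest the mean pattern of the 7 tested members were taken by the root mean square distance of centred log2 CPM, among 7772 genes that carry a symbol and average at least 1 in log2 CPM. They were RCI2B (distance 0.047), OMTF3 (0.054), GDH1 (0.055), PIF4 (0.071) and ATL15 (0.073). RCI2B was at 3.52 and 4.51 CPM in Col-0 and 1.47 and 1.55 CPM in PPD3_OE. With 4 plants, such closeness is a description of these libraries.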

How the data were processed

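Libraries of 4 plants were read as single 150-base reads, per the labels' protocols. The deposited files hold raw read counts per locus, not normalized. The submitters' processing notes name TAIR10 and DESeq2. The sources used here do not name the aligner, the counter or its annotation. The 5 rows without a gene were left out of all fits. They held unassigned reads (0.713% to 0.941% of reads without a feature), ambiguous reads (3.67% to 4.18%) and multiply aligned reads (4.18% to 5.61%).

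The main test was edgeR 4.0.16 (R 4.3.3): its default filter (count of 10, total of 15), TMM scaling, genotype as the one term, and Benjamini-Hochberg adjustment over 19919 genes, with calls at an adjusted p of 0.05. The SE is the log2 fold change over the square root of F, and intervals use 2 residual plus 2.36 prior degrees of freedom. DESeq2 1.42.0 was the other test. Both were also run on simulated counts in which every gene had the same dispersion, so that run does not measure their error rates in these data. CPM are values per plant or mean ± SD over 2 plants. Plants are biological replicates per the labels.

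Names, exons and sequences are from RefSeq TAIR10.1, whose nuclear chromosomes are those of TAIR10, and 32548 of 33977 loci matched. Coding sequences were aligned with Biopython 1.88. The members and lists were chosen with earlier results of these data known. Named genes are the members, PPD3, up to 3 tested genes per list by edgeR p and the 5 nearest in pattern. Marker genes, AT4G26070, SnRK2.2, SnRK2.6, NCED3 and CYP707A3 stand outside that rule. Alternatives were other scalings, filters and thresholds, DESeq2, a replicate block, and each plant left out.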

Additional observations from a re-analysis of the deposited data

How the results depend on the processing

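Each of the 70 member fold changes recomputed under other scalings, filters and designs, in DESeq2 or with 1 plant left out kept a negative sign. That of HAB2 was only -0.01 in edgeR without PPD3_OE plant 2, and all these fits draw on the same plants. The members' median of -1.06 ran from -1.33 to -0.91 with 1 plant left out. edgeR called 0 members lower in the main test, 6 at an adjusted p of 0.10, and DESeq2 called 6. Over all genes edgeR called 0 higher and 1 lower. These counts were 3 and 10 with no low-count filter, 1904 and 2225 at an adjusted p of 0.10, and 1703 and 1969 in DESeq2. With a filter of 5 CPM in 2 libraries, 0 were called lower, and 0 with any 1 plant left out, in fits with fewer degrees of freedom. DESeq2's 6 calls among the members became 2 to 6 with 1 plant left out, an alternative chosen after seeing the data. Replicate numbers were not taken as pairs in the main test. Over genes, differences between plants 1 and 2 correlated at -0.304 between the genotypes, a value that cannot show how the plants were grown or harvested. With the replicate number as a block, edgeR called 0 genes lower and 0 members. A crossed block, also added after seeing the data, called 17 genes higher, 120 lower and 1 member. The median of other PP2C genes lay between -0.16 and 0.08 under these alternatives, and those of channels and oxidases and of ABA synthesis changed sign with 1 plant left out (-0.1 without PPD3_OE plant 1, and 0.01 and 0.04 without Col-0 plant 2 and PPD3_OE plant 2). The cause of these shifts was not tested. Depth limits statements on AHG1 and HAI3 alone, since the other members had at least 46 counts in each plant.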
